A study of Mus musculus with 2 samples.

Results

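The genes described here are 9 receptors and partner proteins through which B cells sense survival factors, T-cell help and microbial products. They were chosen by symbol: Tnfrsf13c, Tnfrsf13b, Cd40, Cd180, Ly86, Tlr1, Tlr7, Tlr9 and Unc93b1, which are 9 of the 30457 genes in either count table, and each was listed in both tables. The cells were spleen cells of female C57BL/6J mice bearing subcutaneous tumours of Lewis lung carcinoma, a mouse cell line. Tumour cells were injected at 10 weeks of age, 200 μg of an antibody to CD4 was given on day 5 and again on day 9, and spleens were taken on day 12. The suspension combined 3 spleens and had been frozen and thawed, so the values carry no spread between mice, and every cell shares the tumour and the antibody since no untreated mice were included. After 2000 cells had been loaded on a BD Rhapsody cartridge, which pairs single cells with barcoded beads, the beads were split between TAS-Seq, which tails cDNA with terminal transferase, and the BD WTA kit, which relies on random priming. There was 1 library for each kit, made from different cells (0 barcodes were shared), so no difference below has a replicate check and no test across samples was possible.

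BAFF is a soluble factor that keeps mature B cells alive through the BAFF receptor (Tnfrsf13c), and TACI (Tnfrsf13b) binds both BAFF and its relative APRIL. CD40 receives the signal of activated T cells through CD40 ligand. CD180, held at the cell surface by MD-1 (the product of Ly86), is a relative of Toll-like receptor 4, while TLR1 reads bacterial lipopeptides at the surface, TLR7 reads single-stranded RNA and TLR9 reads unmethylated CpG DNA in endosomes. UNC93B1 is the membrane chaperone that brings the nucleic acid-sensing receptors from the endoplasmic reticulum to endosomes. Marginal zone B cells, which line the marginal sinus of the spleen, respond rapidly to blood-borne antigens, whereas follicular B cells recirculate and depend on T-cell help for most responses.

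The TAS-Seq library kept 732 cells with a median of 46557 reads, and the BD WTA library kept 708 cells with a median of 38426 reads. Cells were grouped without the 9 genes or their pathway and then named from marker genes, as B-like (409 TAS-Seq and 366 BD WTA cells), T-like (280 and 286), natural killer-like (19 and 26) and myeloid-like (24 and 30). B-like cells were split into follicular-like (286 and 237), marginal zone-like (41 and 34) and other B-like cells (82 and 95). The 8 B-cell markers summed to 10920 CPM (reads of a gene scaled to 1000000 reads of the class) in TAS-Seq B-like cells and 11025 CPM in BD WTA B-like cells, against 149 and 41.7 CPM in T-like cells. The 8 marginal zone markers summed to 3917 and 3929 CPM in marginal zone-like cells against 991 and 1051 CPM in follicular-like cells. The follicular-like class was not filled alike by the methods: of its 4 clusters, 1 with light chain gene Iglc2 as its leading gene held 125 TAS-Seq but 22 BD WTA cells. Bracketed ranges after a CPM are exact Poisson 95% intervals and those after a share of cells are exact binomial 95% intervals. The intervals of CPM and of their ratios treat each read as independent. Reads were counted without molecular identifiers and are not independent molecules, so these intervals are narrower than the counting error. The intervals of shares treat each cell as independent. Neither kind covers spread between mice or libraries, and whether intervals overlap is given as a description. For shares of marginal zone-like against follicular-like cells, how often intervals lie apart over all genes is not given here. Intervals apart in that comparison are therefore not set against a background.

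All 9 genes stood higher in B-like than in T-like cells in both libraries. In TAS-Seq all 9 were at least 2-fold higher in B-like cells, where 16.2% of the 10009 genes compared passed that fold, and in BD WTA 8 of 9 were, where 16.4% of 9674 genes did. The exception in BD WTA was Tlr1, at 1.73-fold. In the opposite direction 0 of 9 were at least 2-fold higher in T-like cells, where 8.41% of genes in TAS-Seq and 11.6% in BD WTA were. The median log2 ratio of the 9 genes was 4.83 in TAS-Seq and 7.47 in BD WTA, with genes that had no read in T-like cells placed at their lower bound, against medians of 0.09 and 0.01 over all genes. These classes were drawn from the same libraries, so the ratios describe these cells and are not a test. A level of 10 CPM in one of the classes was needed to enter the comparison of all genes. All 9 genes reached it in TAS-Seq and Tlr9 alone did not in BD WTA.

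**Figure D1:**
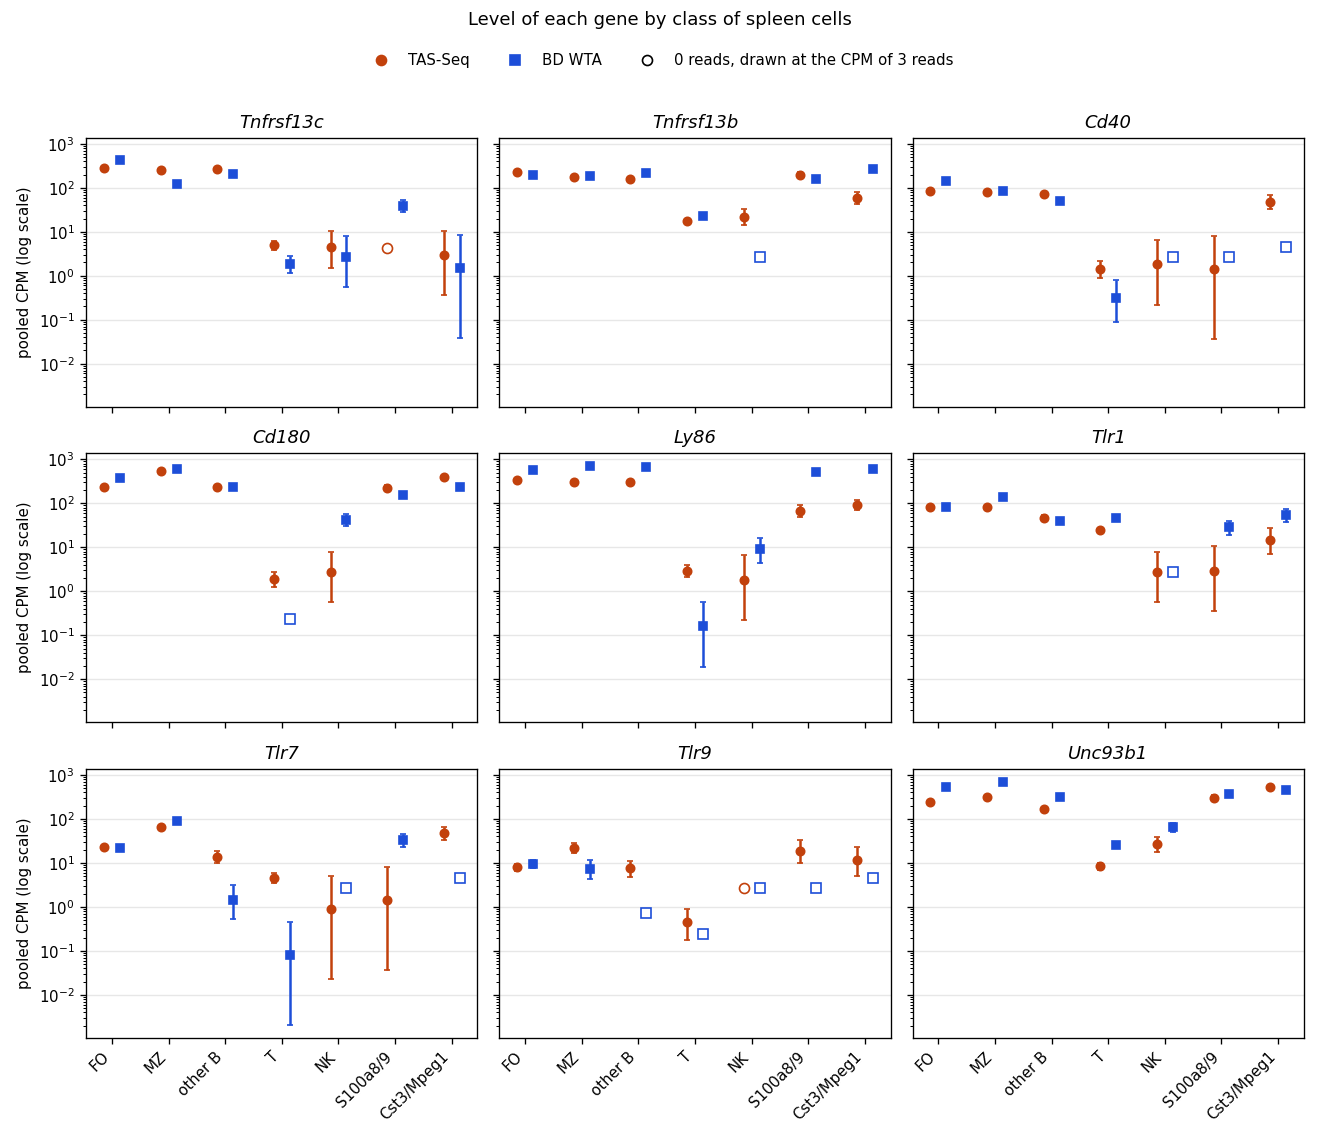
Pooled CPM of the 9 genes (log axis, 1 panel per gene) in 7 classes of spleen cells, with circles for TAS-Seq, squares for BD WTA and bars for the exact Poisson 95% interval. Open symbols mark classes without a read, drawn at the CPM that 3 reads would give. The follicular-like, marginal zone-like and other B-like columns lie above the T-like column, except for Tlr1 in BD WTA, where T-like cells at 46.8 CPM lie above other B-like cells at 40.3 CPM, and Tlr9 in BD WTA, where other B-like and T-like cells had no read.

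The BAFF receptor gene Tnfrsf13c (GRCm38, chr15:82221743-82224369, minus strand, 3 exons) was read in most clusters of B-like cells. Its pooled level was 276 CPM (269 to 284) in TAS-Seq B-like cells and 324 CPM (315 to 333) in BD WTA B-like cells. In T-like cells it was 4.87 CPM (3.85 to 6.09) and 1.83 CPM (1.16 to 2.74). The B-like level was therefore 56.7-fold (45.3 to 71.9) and 177-fold (118 to 280) above the T-like level. With every cell thinned to 20000 reads, 53.8% (48.7 to 58.8) of TAS-Seq and 42.3% (37.0 to 47.8) of BD WTA B-like cells held a read of Tnfrsf13c, against 7.04% and 2.65% of T-like cells.

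Reads in T-like cells have to be set beside those of genes that T cells lack. Cd79a, a chain of the B-cell receptor, had a read in 49.6% of TAS-Seq and 7.58% of BD WTA T-like cells at 20000 reads. Across the 8 B-cell markers the T-like level was 0.847% to 2.06% of the B-like level in TAS-Seq and 0.0762% to 0.809% in BD WTA. These markers named the classes and, unlike the 9 genes, were not left out of the clustering, so their ranges are no independent background. Tnfrsf13c, at 1.76% and 0.564%, lay inside both ranges. So did Cd40, at 1.70% and 0.285%. Ly86, at 0.893%, lay inside the TAS-Seq range, and at 0.0260% it lay below the BD WTA range. Cd180, at 0.671% in TAS-Seq and with no read in BD WTA, lay below both. The gap between B-like and T-like cells was not the same in every grouping of the cells. With the doublet call of each library removed and the cells clustered again, the B-like over T-like log2 ratio was 4.78 in place of 5.83 for Tnfrsf13c and 4.81 in place of 5.88 for Cd40 in TAS-Seq, and 6.53 in place of 7.47 and 6.56 in place of 8.45 in BD WTA. By share of cells at 20000 reads, Tlr1 in BD WTA was the one case among the 9 genes in either library that exceeded the Cd79a share of T-like cells. Median depth was 42331 and 35563.5 reads in B-like cells and 52564 and 42174.5 reads in T-like cells.

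Within B-like cells Tnfrsf13c was even in TAS-Seq and uneven in BD WTA. In TAS-Seq it stood at 283 CPM in follicular-like, 257 CPM in marginal zone-like and 269 CPM in other B-like cells, and the intervals of the other B-like cells (252 to 287) overlapped both. In BD WTA it stood at 429 CPM (416 to 442) in follicular-like, 202 CPM (189 to 217) in other B-like and 119 CPM (106 to 134) in marginal zone-like cells. The last value rests on 282 reads, 84.8% of them in 5 cells. The log2 ratio of marginal zone-like over follicular-like cells was -0.14 (-0.25 to -0.03) in TAS-Seq and -1.84 (-2.02 to -1.67) in BD WTA, so the libraries gave different sizes for the same comparison.

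Tnfrsf13b, which encodes TACI (chr11:61126755-61149372, plus strand, 5 exons, with Gm12269 on the other strand), was less restricted to B-like cells. It stood at 208 CPM (202 to 215) in TAS-Seq and 199.6 CPM (193 to 207) in BD WTA B-like cells, and at 17.3 CPM (15.3 to 19.5) and 22.5 CPM (284 reads) in T-like cells. Its T-like level was 8.30% and 11.3% of its B-like level, above the range of the B-cell markers in both libraries. Few cells carried those reads: 29 of 280 TAS-Seq and 12 of 286 BD WTA T-like cells held any, and 5 cells held 73.3% and 68.0% of them. In myeloid-like cells Tnfrsf13b reached 128 CPM (110 to 149) and 201 CPM (181 to 223), in 7 of 24 and 6 of 30 cells. The B-like over myeloid-like log2 ratio was 0.70 (0.48 to 0.93) in TAS-Seq and -0.01 (-0.17 to 0.15) in BD WTA.

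Among B-like cells, Tnfrsf13b was 229 CPM in follicular-like and 177 CPM in marginal zone-like cells in TAS-Seq, and 194 and 183 CPM in BD WTA. The log2 ratio was -0.37 (-0.50 to -0.24) and -0.08 (-0.23 to 0.07), the latter spanning 0. A read was found in more marginal zone-like than follicular-like cells in both libraries, 58.5% (42.1 to 73.7) against 46.3% (40.4 to 52.3) in TAS-Seq and 47.1% (29.8 to 64.9) against 31.4% (25.5 to 37.7) in BD WTA, with overlapping intervals each time. Among the 4 follicular-like clusters the lowest level was in the one led by interferon-induced genes such as Ifit3 and Slfn5, at 67.8 and 59.3 CPM, and the highest was in the one with the CD23 gene Fcer2a among its leading genes, at 289 and 265 CPM.

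The start regions of both receptor genes are shown to let them be compared. They cover 250 bases before to 50 bases after the RefSeq start (GRCm38.p6), at chr15:82224331-82224630 on the minus strand for Tnfrsf13c and chr11:61126505-61126804 on the plus strand for Tnfrsf13b. Capitals mark GGAAGT, which holds the GGAA core bound by ETS-family factors, or GAGGAA, a purine-rich form bound by PU.1, on either strand.
Tnfrsf13c: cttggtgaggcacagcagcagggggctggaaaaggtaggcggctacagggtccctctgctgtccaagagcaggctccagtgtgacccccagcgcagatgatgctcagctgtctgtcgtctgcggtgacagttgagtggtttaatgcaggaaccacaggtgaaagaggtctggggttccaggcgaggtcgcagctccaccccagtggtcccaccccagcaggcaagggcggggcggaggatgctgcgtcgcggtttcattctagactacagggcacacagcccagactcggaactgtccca
Tnfrsf13b: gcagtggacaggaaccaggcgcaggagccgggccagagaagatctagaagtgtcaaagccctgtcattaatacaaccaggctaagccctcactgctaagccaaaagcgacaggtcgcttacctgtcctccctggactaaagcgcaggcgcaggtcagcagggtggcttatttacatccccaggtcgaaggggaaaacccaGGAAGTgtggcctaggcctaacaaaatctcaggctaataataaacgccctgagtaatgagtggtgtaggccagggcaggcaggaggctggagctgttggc
GGAAGT was found in Tnfrsf13b from 50 bases before the start and was not found in the window of Tnfrsf13c. Among 32851 mouse windows of this length, 23.8% hold GGAAGT and 28.3% hold GAGGAA. Both motifs were searched on both strands and could overlap. These matches describe the letters and say nothing of whether a factor binds.

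Cd40 (chr2:165055627-165072948, plus strand, 9 exons), the receptor for T-cell help, also had few T-like reads. Its pooled level was 81.9 CPM (78.0 to 86.0) in TAS-Seq and 111 CPM (106 to 117) in BD WTA B-like cells, against 1.39 and 0.318 CPM in T-like cells. This is 58.8-fold (38.7 to 94.1) in TAS-Seq and 351-fold (137 to 1288) in BD WTA, where the T-like value rests on 4 reads. At 20000 reads, 26.5% (22.2 to 31.2) and 16.5% (12.7 to 20.9) of B-like cells held a read.

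In myeloid-like cells Cd40 differed between libraries. It stood at 24.9 CPM (17.2 to 34.8) in TAS-Seq, from 34 reads in 4 cells, of which 33 reads were in the group with Cst3 and Mpeg1 among its leading genes. In BD WTA no read was found in 30 myeloid-like cells. The B-like level was 65.6-fold above the level of 3 reads in that class, with an exact lower limit of 53.3-fold. Counting cells, 0 of 25 BD WTA myeloid-like cells at 20000 reads held one, which allows a share of cells with a read of up to 12.0% when 3 cells are taken as the limit and 13.7% by the exact interval. Within B-like cells the order was follicular-like, marginal zone-like, other B-like in both libraries, at 85.1, 78.8 and 72.4 CPM in TAS-Seq and 146, 83.0 and 49.6 CPM in BD WTA. Neighbours in that order overlapped in their intervals in TAS-Seq and did not in BD WTA, where 98.98% of the marginal zone-like reads came from 5 cells.

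Cd180 (chr13:102693558-102739629, plus strand, 3 exons, with Mast4 overlapping on the other strand) was higher in marginal zone-like than in follicular-like cells in both libraries. It stood at 533 CPM (508 to 558) against 236 CPM (228 to 245) in TAS-Seq and at 612 CPM (581 to 645) against 367.6 CPM (356 to 380) in BD WTA. The log2 ratio was 1.17 (1.09 to 1.26) and 0.74 (0.65 to 0.82). The share of cells with a read at 20000 reads showed the same order without overlap, 80.5% (65.1 to 91.2) against 49.8% (43.9 to 55.8) in TAS-Seq and 82.4% (65.5 to 93.2) against 40.7% (34.3 to 47.2) in BD WTA. Cd180 was not used to form the clusters, although it ranks among the 10 genes that lead the marginal zone-like cluster by fold. Marginal zone-like cells were also deeper, with a median of 76697 and 68502 reads against 43431 and 36773. Thinning made the reads per cell equal for the shares, but reads are not independent molecules. Any remaining part of depth in the shares was not tested.

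Not all follicular-like clusters were lower to the same degree. In TAS-Seq the 4 clusters ranged from 194 to 267 CPM of Cd180, all under the marginal zone-like level. In BD WTA they ranged from 134 to 500 CPM, and the highest, the Fcer2a cluster with 479 to 522 CPM, stayed under the lower bound of 581 CPM in marginal zone-like cells. Other B-like cells were at 232 and 234 CPM.

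Ly86, whose product MD-1 pairs with CD180 (chr13:37345208-37419036, plus strand, 5 exons), showed a smaller difference between these B-cell classes and no shared direction in its pooled level. It stood at 309 CPM (290 to 329) in marginal zone-like and 334 CPM (324 to 343) in follicular-like cells in TAS-Seq, and at 697 CPM (664 to 732) and 569 CPM (554 to 585) in BD WTA. The log2 ratio was -0.11 (-0.21 to -0.01) and 0.29 (0.21 to 0.37). By share of cells at 20000 reads, marginal zone-like cells were at 75.6% (59.7 to 87.6) against 60.7% (54.8 to 66.4) in TAS-Seq, with overlap, and at 91.2% (76.3 to 98.1) against 63.6% (57.1 to 69.7) in BD WTA, without overlap. The highest level of Ly86 in any B-like cluster of the follicular-like class was in the 11 cells per library led by interferon-induced genes, at 602 CPM (536 to 674) and 992.5 CPM (903 to 1088), against 268 to 345 CPM and 377 to 572 CPM in the other 3 clusters.

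Both partners had few reads in T-like cells as drawn here. Cd180 had 30 reads in 280 TAS-Seq T-like cells (1.90 CPM) and none in 286 BD WTA T-like cells. The B-like level was 149-fold (104 to 221) higher in TAS-Seq. In BD WTA it was 1548-fold above the level of 3 reads in the T-like class, with an exact lower limit of 1258-fold. None of 264 BD WTA T-like cells at 20000 reads held a read, which allows a share of cells with a read of up to 1.14% when 3 cells are taken as the limit and 1.39% by the exact interval. Ly86 had 46 reads (2.91 CPM) in TAS-Seq and 2 reads in BD WTA T-like cells, and was 112-fold (83.8 to 153) higher in B-like cells in TAS-Seq. These ratios were smaller with the doublet call removed and the cells clustered again, at log2 4.91 in place of 7.22 for Cd180 and 5.17 in place of 6.81 for Ly86 in TAS-Seq. In BD WTA they were 4.97 for Cd180 and 3.58 for Ly86, so the size of the gap there changed with that regrouping. Which cells changed class is not given here, and the cause was not tested. In myeloid-like cells, by contrast, Cd180 stood at 306 CPM (277 to 337) and 187 CPM (167 to 208), and Ly86 at 79.8 CPM (65.5 to 96.3) and 558.5 CPM (524 to 594). Their myeloid-like reads came from 10 and 8 cells for Cd180 and from 8 and 14 cells for Ly86.

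Reads of the partners were also compared within the same B-like cells. Ly86 was found in 64.2% (57.1 to 70.8) of TAS-Seq B-like cells with Cd180 and 56.9% (49.7 to 64.0) of those without, which overlap. In BD WTA the shares were 74.3% (66.5 to 81.2) and 58.9% (51.5 to 66.1), with intervals apart. Within follicular-like cells alone they were 61.3% and 60.1% in TAS-Seq and 68.8% and 60.0% in BD WTA, with overlap in both. Within marginal zone-like cells they were 72.7% and 87.5% in TAS-Seq and 89.3% and 100% in BD WTA, where 8 and 6 cells lacked Cd180. The start regions of the pair, from RefSeq on GRCm38.p6, lie on the plus strand at chr13:102693297-102693596 for Cd180 and chr13:37345095-37345394 for Ly86, with capitals as above.
Cd180: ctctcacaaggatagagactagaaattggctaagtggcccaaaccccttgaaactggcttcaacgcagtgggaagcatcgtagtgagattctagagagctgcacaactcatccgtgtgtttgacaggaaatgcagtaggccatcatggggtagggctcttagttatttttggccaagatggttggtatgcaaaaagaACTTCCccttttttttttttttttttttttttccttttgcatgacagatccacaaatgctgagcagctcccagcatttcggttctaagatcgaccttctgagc
Ly86: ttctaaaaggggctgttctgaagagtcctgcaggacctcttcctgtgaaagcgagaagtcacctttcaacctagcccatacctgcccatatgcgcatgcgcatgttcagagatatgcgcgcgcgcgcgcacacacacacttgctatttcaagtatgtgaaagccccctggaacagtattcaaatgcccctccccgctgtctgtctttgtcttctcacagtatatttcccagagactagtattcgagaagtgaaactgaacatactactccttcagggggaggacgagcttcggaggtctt
GGAAGT was found once in the Cd180 window, on the minus strand and so printed as ACTTCC, from 53 bases before the start. Neither GGAAGT nor GAGGAA was found in the Ly86 window, and the octamer ATGCAAAT, which is in 1.74% of all windows, was in neither.

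**Figure D2:**
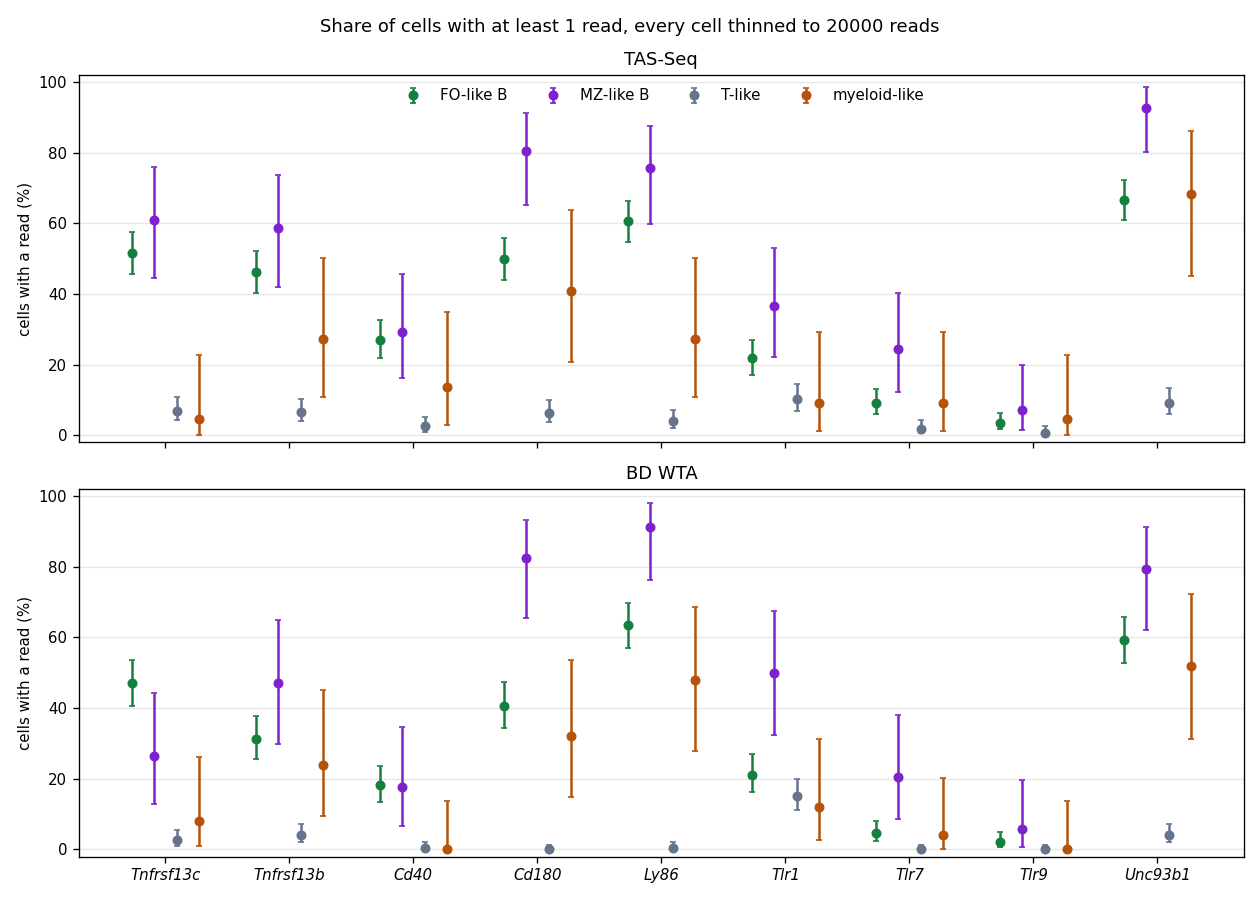
Share of cells with at least 1 read of each gene (vertical axis, percent) after thinning to 20000 reads, for follicular-like B, marginal zone-like B, T-like and myeloid-like cells, with TAS-Seq above and BD WTA below. Points are shares and bars are exact binomial 95% intervals. Cd180 is at 80.5% and 82.4% in marginal zone-like cells, apart from the 49.8% and 40.7% of follicular-like cells.

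Tlr1 (chr5:64924679-64933563, minus strand, 4 exons) was the member with the smallest gap between B-like and T-like cells. It stood at 75.9 CPM (72.1 to 79.8) in TAS-Seq and 80.9 CPM (76.5 to 85.4) in BD WTA B-like cells, and at 24.7 CPM (22.3 to 27.3) and 46.8 CPM (43.1 to 50.8) in T-like cells. The T-like level was thus 32.5% and 57.9% of the B-like level, far over the range of the B-cell markers. By cells, 10.4% and 15.2% (11.1 to 20.1) of T-like cells held a read at 20000 reads, against 49.6% and 7.58% for Cd79a.

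The T-like clusters did not carry Tlr1 evenly. The cluster with Cd4 and Tcf7 among its leading genes was at 39.3 CPM (34.4 to 44.7) in TAS-Seq and 44.9 CPM (39.2 to 51.1) in BD WTA. A small cluster led by Trbc2 that had Maf, Ikzf2 and Icos among its leading genes was at 45.3 and 45.4 CPM. The Cd8b1 cluster was at 13.5 CPM (10.98 to 16.5) in TAS-Seq and 57.7 CPM (51.3 to 64.6) in BD WTA, a difference between methods. The cluster led by Il2rb and Ccl5 had 1 read in TAS-Seq and 12.5 CPM in BD WTA, from 1 cell. B-cell markers in those clusters summed to 131 to 267 CPM in TAS-Seq and 30.5 to 44.3 CPM in BD WTA. The cluster highest in Tlr1 was in each library also the highest in these markers, and their part in the Tlr1 levels was not tested. Part of the Tlr1 transcript is shared with its neighbour in the family, Tlr6: 20.02% of the 31-base words of Tlr1 also occur in other genes, 607 of them in Tlr6, so reads of these genes can be exchanged. Tlr6 itself was at 3.54 and 3.87 CPM in B-like and 3.42 and 10.7 CPM in T-like cells. Between 0% and 2.99% of words were shared for the other 8 genes.

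Tlr1 also ordered the B-like classes differently in the libraries. In TAS-Seq it stood at 82.4 CPM in follicular-like, 80.4 CPM in marginal zone-like and 46.3 CPM in other B-like cells, the former 2 overlapping. In BD WTA marginal zone-like cells were highest at 138.5 CPM (124 to 154), followed by follicular-like cells at 84.5 CPM (78.7 to 90.5) and other B-like cells at 40.3 CPM. The share of cells at 20000 reads was higher in marginal zone-like cells in both, 36.6% (22.1 to 53.1) against 21.8% (17.1 to 27.0) with overlap in TAS-Seq and 17 of 34 cells (32.4% to 67.6%) against 21.2% (16.2 to 27.0) without overlap in BD WTA.

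Tlr7 (chrX:167304929-167330558, minus strand, 5 exons) had the largest marginal zone-like over follicular-like ratio of the 9 genes in both libraries. Its level was 64.1 CPM (55.6 to 73.4) against 22.7 CPM (20.3 to 25.4) in TAS-Seq and 91.1 CPM (79.3 to 104) against 21.6 CPM (18.7 to 24.8) in BD WTA. The log2 ratio was 1.49 (1.23 to 1.75) and 2.08 (1.79 to 2.36). These levels rest on few cells, since 12 of 41 and 7 of 34 marginal zone-like cells held a read and 5 cells held 83.7% and 91.6% of the reads. At 20000 reads the share was 24.4% (12.4 to 40.3) against 9.12% (6.05 to 13.1) in TAS-Seq, with overlap, and 20.6% (8.70 to 37.9) against 4.66% (2.35 to 8.19) in BD WTA, without.

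Tlr7 was also read outside B-like cells, in classes that differed much in size. T-like cells held 72 reads in 7 cells in TAS-Seq (4.56 CPM, 97.2% of the reads in 5 cells) and 1 read in BD WTA. Their level in the small myeloid-like class overlapped the B-like level of 27.8 and 26.6 CPM. Myeloid-like cells stood at 24.2 CPM (16.6 to 33.9) from 4 of 24 cells in TAS-Seq and 20.4 CPM (14.3 to 28.2) from 1 of 30 cells in BD WTA. In BD WTA that cell alone carried the value: with the doublet call removed and the cells clustered again, the B-like over myeloid-like log2 ratio was 3.76 in place of 0.38.

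Tlr9 (chr9:106222598-106226883, plus strand, 2 exons) was at the edge of detection. B-like cells held 204 reads in 20 cells in TAS-Seq (10.0 CPM, 8.71 to 11.5) and 105 reads in 7 cells in BD WTA (6.56 CPM, 5.37 to 7.94). T-like cells held 7 reads in 2 cells and no read. Marginal zone-like cells were at 21.9 CPM (17.1 to 27.6) against 7.87 CPM in follicular-like cells in TAS-Seq, from 71 reads in 4 cells, and at 7.20 CPM (4.20 to 11.5) against 9.31 CPM in BD WTA, from 17 reads in 2 cells. The direction therefore differed between libraries, and with the doublet call removed and the cells clustered again the TAS-Seq log2 ratio was 0.45 in place of 1.47. A difference between these classes in Tlr9 was not resolved at this depth.

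The chaperone gene Unc93b1 (chr19:3935186-3949340, plus strand, 11 exons) was ordered alike in both libraries across the B-like classes. At 20000 reads 67.2% (62.3 to 71.8) and 58.6% (53.1 to 63.9) of B-like cells held a read. Its level was 317 CPM (298 to 337) in marginal zone-like, 238 CPM (230 to 246) in follicular-like and 167 CPM (154 to 181) in other B-like cells in TAS-Seq. In BD WTA the same order was seen at 673 CPM (640 to 707), 528 CPM (514 to 543) and 318 CPM (301 to 335), with no overlap between neighbours in either library. The marginal zone-like over follicular-like log2 ratio was 0.41 (0.31 to 0.51) and 0.35 (0.27 to 0.43), under 2-fold.

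Unc93b1 was also read in myeloid-like cells, at 419 CPM (385 to 455) in TAS-Seq and 400.1 CPM (371 to 431) in BD WTA. The B-like over myeloid-like log2 ratio was -0.81 (-0.94 to -0.69) in TAS-Seq and 0.31 (0.19 to 0.42) in BD WTA, opposite directions. In T-like cells it stood at 8.35 and 25.3 CPM, which is 3.50% and 5.12% of the B-like level and over the range of the B-cell markers. In BD WTA 216 of the 319 T-like reads were in 6 of the 24 cells of the Il2rb and Ccl5 cluster (168 CPM), where TAS-Seq had 3 reads in 27 cells (2.14 CPM). Natural killer-like cells were at 26.5 CPM (17.7 to 38.0) and 65.5 CPM (51.3 to 82.3).

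Among B-like cells with a read of Tlr7, one of the receptors that UNC93B1 carries, 87.8% (73.8 to 95.9) held Unc93b1 in TAS-Seq against 64.8% (59.6 to 69.8) of those without, with intervals apart. In BD WTA the shares were 78.9% (54.4 to 93.9) and 57.3% (51.7 to 62.9), which overlap. Within marginal zone-like cells, where both genes were higher, they were 90.0% and 93.5% in TAS-Seq and 71.4% and 81.5% in BD WTA, with 10 and 7 cells that held Tlr7. Within follicular-like cells, with 26 and 11 such cells, they were 84.6% (65.1 to 95.6) and 64.9% (58.7 to 70.7) in TAS-Seq and 81.8% (48.2 to 97.7) and 58.2% (51.5 to 64.7) in BD WTA, which overlap.

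**Figure D3:**
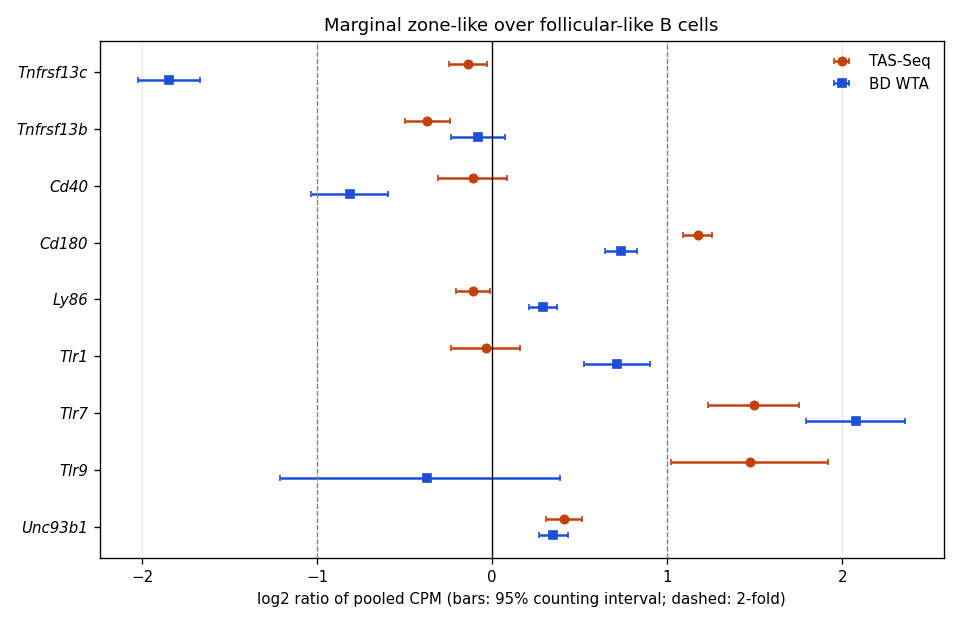
Log2 ratio of pooled CPM, marginal zone-like over follicular-like B cells, for each gene (rows) in TAS-Seq (circles) and BD WTA (squares), with bars for the 95% counting interval and dashed lines at 2-fold. Tlr7 lies past the upper dashed line in both libraries, at 1.49 and 2.08, and Tnfrsf13c lies past the lower one in BD WTA, at -1.84.

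Across the 9 genes, 3 were at least 2-fold higher in marginal zone-like than follicular-like cells in TAS-Seq (Cd180, Tlr7 and Tlr9), where 10% of 9852 genes passed, and 1 was in BD WTA (Tlr7), where 11.1% of 8391 genes passed. In the other direction 0 did in TAS-Seq, where 15.5% of genes passed, and 1 did in BD WTA (Tnfrsf13c), where 21.2% passed. Tlr7 alone passed in both libraries in the same direction. In TAS-Seq Cd180 was at 0.93 at clustering resolution 0.5, and Tlr9 at 0.45 with the doublet call removed and 0.31 without a filter on cells, all under 2-fold. The median log2 ratio of the 9 was -0.04 and 0.29, and over all genes it was -0.02 and -0.09. Markers of other cells were also summed in the marginal zone-like class. The 8 T-cell markers stood at 57.3 and 16.1 CPM against 115 and 118 CPM in follicular-like cells. The 15 myeloid markers stood at 1020 and 1132 CPM against 961 and 1268 CPM. The part of both marker sets in the differences was not tested.

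Set against myeloid-like cells, the genes were less uniform. Tnfrsf13c, Cd40 and Tlr1 were at least 2-fold higher in B-like cells in both libraries, Ly86 was in TAS-Seq only (log2 ratio 2.03, against 0.13 in BD WTA), and Tlr9 was in BD WTA only, where no myeloid-like read was found. That makes 4 of 9 in each library, where 31.3% of 10280 and 33.6% of 9279 genes passed. Tlr9 was not among those 9279 genes, and its lower bound was 0.26 on the log2 scale with cells thinned to 20000 reads. The myeloid-like level of Tlr1 in BD WTA was still 46.9% of its B-like level, and that of Cd40 in TAS-Seq 30.4%. None of the 9 was at least 2-fold higher in the myeloid-like class taken whole, where 19.8% and 16.3% of genes were. Within that class, Unc93b1 reached 224% of its B-like level in the TAS-Seq cells with Cst3 and Mpeg1. The median log2 ratio of the 9 was 0.70 and 0.98, against 0.27 and 0.38 over all genes.

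The myeloid-like class was small and mixed. It held a group with S100a8 and S100a9 among its leading genes (13 and 16 cells) and a group with Cst3 and Mpeg1 (11 and 14 cells). The B-cell markers summed to 249 and 1142 CPM in the former and 236 and 17.9 CPM in the latter. Plasma-cell markers summed to 6268 CPM in the BD WTA S100a8 and S100a9 group against 275 CPM in TAS-Seq. Cd79a had a read in 59.1% of TAS-Seq and 12% of BD WTA myeloid-like cells at 20000 reads. Unc93b1 alone exceeded that share in TAS-Seq, at 68.2%, while in BD WTA Tnfrsf13b, Cd180, Ly86 and Unc93b1 did, at 24.0% to 52.0%. The part of these reads in the myeloid-like levels was not tested. In the Cst3 and Mpeg1 group of BD WTA, where B-cell markers summed to those 17.9 CPM, Cd180 stood at 235 CPM (200 to 275), Ly86 at 611 CPM (553 to 673), Tnfrsf13b at 273 CPM (235 to 315) and Unc93b1 at 446 CPM (397 to 499), while Cd40, Tlr7 and Tlr9 had no read in its 14 cells. The 11 TAS-Seq cells of that group differed, with Tlr7 at 169.6% of its B-like level, Tlr9 at 117.4% and Cd40 at 59.3%. Cd180 stood at 138.5% and Unc93b1 at 224.3% there, and the other genes at 1.07% to 28.5%.

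The methods were compared in B-like cells, the class with the most cells. Its makeup was not the same in the libraries, since plasma-cell markers summed to 262 CPM in TAS-Seq and 1387 CPM in BD WTA B-like cells, and their part in these differences was not tested. Unc93b1 was 2.07-fold higher in BD WTA, at 494 CPM (483 to 505) against 238 CPM (232 to 245). It was the only member past 2-fold in that direction, where 6.85% of 9865 genes passed, and 0 members were at least 2-fold higher in TAS-Seq, where 13% did. Ly86 followed at 1.88-fold higher in BD WTA, with 611 CPM (599 to 623) against 326 CPM (318 to 334). Tlr9 was 1.53-fold higher in TAS-Seq. The log2 ratio of the other 6 genes, TAS-Seq over BD WTA, ran from -0.44 for Cd40 to 0.07 for Tlr7, and the median of all 9 was -0.23 against 0.14 over all genes.

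Shares of cells gave another order than levels. For Tnfrsf13c, Tnfrsf13b and Cd40 the share of B-like cells with a read at 20000 reads was larger in TAS-Seq with intervals apart, which is 3 of 9 genes where 29.9% of 16026 genes showed this, and for no member was it larger in BD WTA, where 0.711% did. With at least 2 reads asked of a cell, 0 of 9 did so. Among cells with a read, without thinning, each of the 9 genes had a higher median level in BD WTA. Examples were 722 against 224 CPM for Unc93b1, 574 against 127 CPM for Cd40 and 247 against 210 CPM for Tlr1. BD WTA B-like cells were shallower, at a median of 35563.5 against 42331 reads, so that 1 read counts as a higher CPM. The part of depth in these levels was not tested. B-like cells held a median of 3 of the 9 genes in each library at 20000 reads and marginal zone-like cells 5 in TAS-Seq and 4 in BD WTA. In 4 of 396 and 12 of 333 B-like cells none was found, and no cell held over 7.

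**Figure D4:**
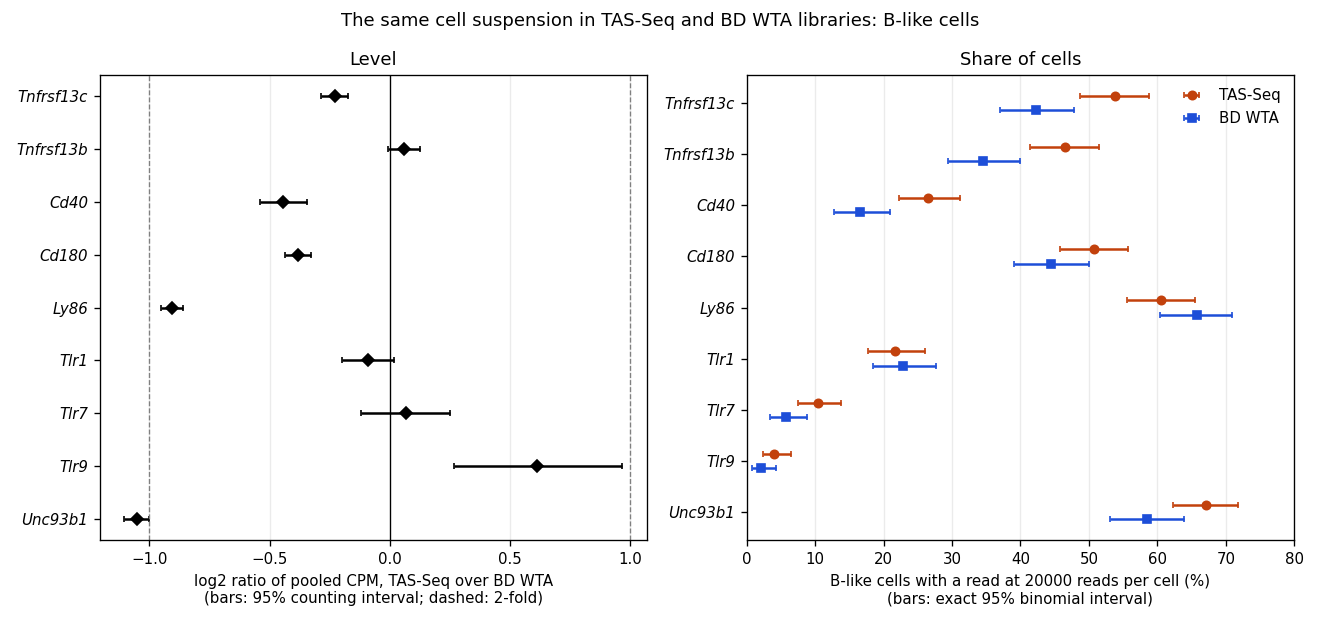
B-like cells of the libraries: left, log2 ratio of pooled CPM, TAS-Seq over BD WTA, with bars for the 95% counting interval and dashed lines at 2-fold; right, percent of cells with a read at 20000 reads in TAS-Seq (circles) and BD WTA (squares), with exact binomial 95% intervals. Unc93b1 lies at -1.05 on the left, while on the right its shares of 67.2% and 58.6% overlap.

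The wider pathway was followed in 57 listed genes, of which 54 had a row in the tables. In B-like over T-like cells 20 were at least 2-fold higher and 6 lower in TAS-Seq, and 22 higher and 5 lower in BD WTA, with median log2 ratios of 0.55 and 0.72. Over all genes with at least 10 CPM in a class, 16.2% and 16.4% were higher and 8.41% and 11.6% lower. The pathway counts here and below also hold genes under that level, among them 4 in TAS-Seq and 6 in BD WTA with 3 reads or fewer in a class. Of the 3 ligands 0 were at least 2-fold higher in B-like cells. Cd40lg, which encodes the ligand of CD40, was at 54.7 and 64.2 CPM in T-like cells and at 0.837 CPM and no read in B-like cells. The genes of BAFF and APRIL, Tnfsf13b and Tnfsf13, had under 2 CPM in B-like and T-like cells. In BD WTA myeloid-like cells they were at 19.8 and 30.0 CPM, whereas TAS-Seq myeloid-like cells had 1 read and no read.

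Of the other receptors, 8 in TAS-Seq and 7 in BD WTA had reads enough for a ratio of B-like over T-like cells. At least 2-fold higher in B-like cells were 3 in TAS-Seq, with 3 lower, and 5 in BD WTA, with 2 lower. Over all genes 16.2% and 16.4% were higher in that comparison and 8.41% and 11.6% lower. Tlr4 was at 10.48 and 7.06 CPM and its partner Ly96, which encodes MD-2, at 11.2 and 11.3 CPM in B-like cells. Cd14, the co-receptor that delivers lipopolysaccharide, was at 54.9 and 158 CPM in myeloid-like cells and had 2 and 1 reads in B-like cells. Tlr3, the receptor for double-stranded RNA, was at 19.7 and 7.63 CPM in marginal zone-like cells and had 1 read in the follicular-like cells of each library. Tlr2 went the other way, at 3.39 against 10.7 CPM in TAS-Seq and no read against 8.15 CPM in BD WTA. In TAS-Seq 7 pathway genes were at least 2-fold higher in marginal zone-like than follicular-like cells and 9 lower. In BD WTA 6 were higher and 11 lower. Over all genes 10% and 11.1% were higher and 15.5% and 21.2% lower. Tlr12 was at 6.08 and 7.30 CPM in T-like and 0.689 and 0.437 CPM in B-like cells.

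Genes that fold, move or cut Toll-like receptors were mostly higher in B-like than T-like cells. In each library 5 of 6 in the tables passed 2-fold, where 16.2% and 16.4% of all genes did. Hsp90b1, which encodes the chaperone gp96, was at 790 and 1128 CPM in B-like cells and at 365 and 432 CPM in T-like cells. Cnpy3, a co-chaperone of gp96, was at 88.7 and 97.5 CPM against 13.4 and 17.9 CPM. Slc15a4, an endolysosomal transporter needed for TLR7 and TLR9 signalling, was at 80.01 and 65.2 CPM against 1.39 and 9.85 CPM, and 5430427O19Rik, whose product TASL binds it, at 38.7 and 8.94 CPM against 4.49 and 1.43 CPM. Lgmn, a protease, was at 101.4 and 68.5 CPM against 5.76 and 3.89 CPM, and Ap3b1, an adaptor subunit of endosomal sorting, at 64.0 and 88.4 CPM against 62.6 and 84.6 CPM, the one gene of this group under 2-fold. 5430427O19Rik was also at least 2-fold higher in marginal zone-like than follicular-like cells in both libraries, at 83.8 against 32.2 CPM and 14.8 against 4.87 CPM.

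Downstream, 7 of 20 adaptors and kinases were at least 2-fold higher in B-like than T-like cells in each library, with 0 lower in TAS-Seq and 1 lower in BD WTA (Traf1). Beside this group and those below, 16.2% and 16.4% of all genes were higher and 8.41% and 11.6% lower. Pik3ap1, an adaptor linking B-cell and Toll-like receptors to PI3-kinase, was at 126 and 109.5 CPM against 7.09 and 0.238 CPM. Irak1, a kinase of the MyD88 route, was at 158 and 270.1 CPM in B-like cells and at 113 and 195.5 CPM in T-like cells, while Myd88 itself was at 29.4 and 16.9 CPM against 32.6 and 16.6 CPM. Of 7 transcription factors 3 were higher and 0 lower in each library, among them Irf5 at 123 and 67.2 CPM against 2.97 and 0.476 CPM and Rel at 167 and 139 CPM against 39.0 and 24.5 CPM. Of 7 inhibitors 2 were higher in each library and 1 lower in BD WTA (Tnfaip3, at 61.2 against 124 CPM). Nfkbia, the inhibitor of NF-kappaB that NF-kappaB itself induces, was at 328 and 251.1 CPM in B-like, 279 and 218.5 CPM in T-like and 838 and 229 CPM in myeloid-like cells.

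**Figure D5:**
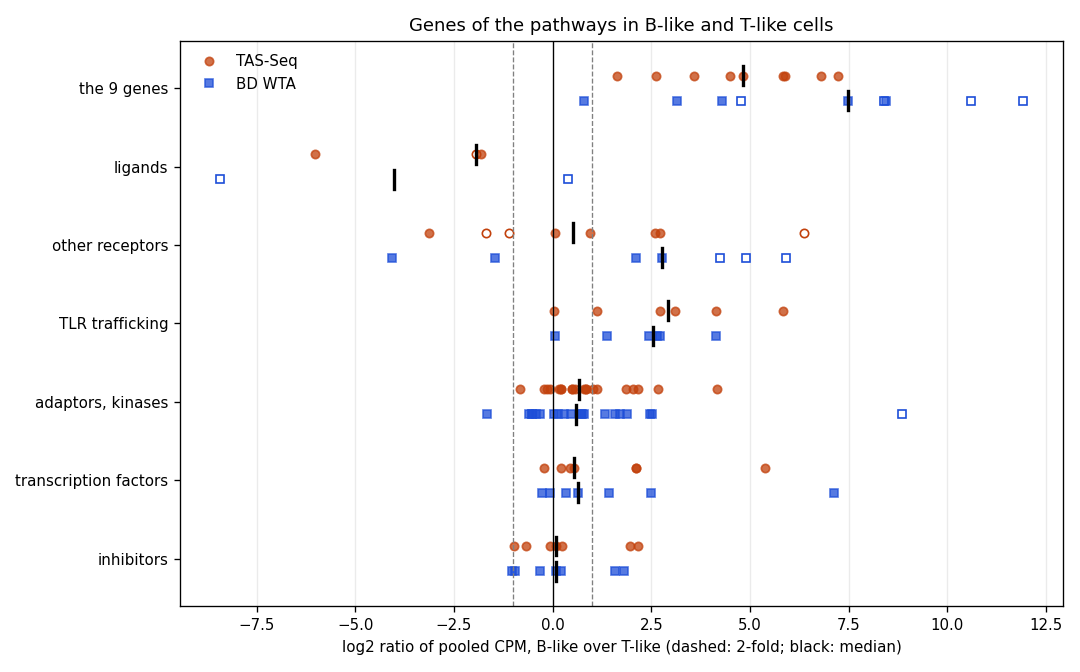
Log2 ratio of pooled CPM, B-like over T-like cells, for the 9 genes and 6 groups of pathway genes (rows), with circles for TAS-Seq, squares for BD WTA, open symbols where a class had 3 reads or fewer, black lines for medians and dashed lines at 2-fold. The 9 genes have medians of 4.83 and 7.47 and the ligands lie to the left of 0 except for Tnfsf13b in BD WTA, which rests on 5 and 3 reads.

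The genes whose levels followed each member most closely were found by Pearson's r of log2(CPM + 1) over 14 profiles, 7 cell classes in each of the libraries, centred within the library, among 8145 genes. These profiles share libraries and depth, and r is given as a description. H2-Ab1, Cd74 and Ciita, which belong to MHC class II presentation, came closest to Cd180, with r of 0.966 for H2-Ab1. As r spans all classes, a close gene need not follow a member between B-cell classes. H2-Ab1 was lower in marginal zone-like than follicular-like cells, at 2959 against 3389 CPM in TAS-Seq and 5147 against 5894 CPM in BD WTA, unlike Cd180. Rubcn, named below for Tlr7, was higher in marginal zone-like cells in both libraries, as Tlr7 was. Wdfy4, Cd74 and H2-DMb1 came closest to Ly86, with 0.983 for Wdfy4, and Pld4, Themis2 and Cd74 to Unc93b1, with 0.963 for Pld4. For Tnfrsf13c they were Chst3 (0.965), Gm15848 and Srpk3, for Tnfrsf13b Myo5a (0.956) and Ptpn6, and for Cd40 3300005D01Rik (0.956), 2010007H06Rik and Pxdc1. For Tlr7 they were Rubcn (0.967), Baz1a and Trim7, for Tlr1 2510002D24Rik (0.938), Rrp36 and Gpr183, and for Tlr9 Ncoa3 (0.852), Srsf5 and Setd2. Among pairs of the 9 genes the highest r was 0.955 for Cd180 with Unc93b1, followed by 0.936 for Cd180 with Ly86.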

How the data were processed

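Single-cell RNA-seq was measured in 1 TAS-Seq and 1 BD WTA library. The deposited tables hold raw counts of reads per gene and barcode (38656790 reads over 736 barcodes and 31608259 over 716). According to the study's methods the authors trimmed with cutadapt, mapped to Ensembl cDNA and non-coding RNA of GRCm38 on the forward strand with bowtie2, and kept barcodes over an inflection point. Versions named in the submitters' processing notes are cutadapt 2.10, Bowtie2 2.4.2 and R 3.6.3. A background subtraction in those methods is not stated for these tables. Mapping to transcripts can exchange reads between near copies of a gene, and without molecular identifiers amplification sets part of each value.

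Cells with at least 500 genes and at most 25% mitochondrial reads were kept. Both libraries were integrated (CCA, 3000 genes) and clustered in Seurat 5.3.0 (R 4.3.3), with 20 principal components, a resolution of 1, reads per cell regressed out, and the 9 genes and 57 pathway genes left out. B-like cells were reclustered, and a cluster mixing myeloid and B cells was divided with 10 components. A cluster was named from at least 3 markers raised by at least 1 on the log2(CPM + 1) scale detected in 50% or more of the cells (20% for follicular markers against marginal zone-like cells). Such names may not match the annotation of the study. Scrublet (scanpy 1.11.5) called 1 doublet per library at an expected rate of 0.05, kept here.

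Reads were summed per class and library as CPM. Intervals are exact at 95% for independent counts, and in ratios a count of 0 was set to 3 reads. Genes with at least 10 CPM in a class and reads in at least 10 cells formed the background of each comparison. Shares used cells thinned to 20000 reads (707 and 645 cells reached it). Ratios and intervals were tested on simulated independent Poisson counts, the setting that the intervals assume. That check cannot show how the intervals hold for amplified reads that sit in few cells. Gene positions are from GENCODE M21 and start regions from RefSeq, which had an entry for 6 of the 9 genes and none for Cd40, Tlr7 and Unc93b1. The named genes are the 9 members, pathway genes by group with those highest in a class, and the 3 genes most like each member (1 is not reported here), and other pathway genes were chosen for description after their values were seen. Members and lists were chosen with earlier results of these data known, and the naming rules and joint clustering were settled after clusters and levels were seen. Alternatives included the mean of CPM per cell, thinning, other filters, resolutions and folds, TMM factors (edgeR 4.0.16) and each library clustered alone.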

Additional observations from a re-analysis of the deposited data

How the results depend on the processing

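No paired analysis was possible because the kits are represented by single libraries and none of the results is a test. Of 603 values of the 9 genes under alternative settings, 562 had the same sign, and of the 300 past 2-fold in the settings used all kept their sign and 296 were also past 2-fold. The exceptions were Cd180 in TAS-Seq marginal zone-like over follicular-like cells at resolution 0.5 (log2 0.93), Tlr9 in the same comparison with doublet calls removed (0.45) and without a filter on cells (0.31), and Tlr9 in BD WTA B-like over myeloid-like cells after thinning (0.26). Of 194 counts and class shares, 22 moved. At least 3-fold higher in marginal zone-like cells were 0 genes in TAS-Seq. In BD WTA 2 genes were past 2-fold after thinning and without a filter on cells, and 3 at 1.5-fold. Higher in BD WTA follicular-like cells were 2 genes by the mean of CPM per cell and 2 at 1.5-fold. Higher in TAS-Seq myeloid-like than B-like cells were 2 genes at 1.5-fold, and in BD WTA B-like over myeloid-like cells 7 were past 2-fold by the mean of CPM per cell. Between methods, 1 gene was higher in TAS-Seq at 1.5-fold, and higher in BD WTA were 2 with TMM factors, 2 at 1.5-fold and 0 at 3-fold. A larger share of TAS-Seq B-like cells was seen for 0 genes at 2 reads, 0 at 5 reads and 5 without thinning. Follicular-like cells were 39.1% of TAS-Seq cells, and 32.8% at resolution 0.5, 50.7% with each library clustered alone and 43.8% with doublet calls removed. In BD WTA they were 33.5%, and 29.3% with doublet calls removed. Marginal zone-like cells were 5.601% of TAS-Seq cells and 8.47% with the library alone, BD WTA T-like cells 40.4% and 44.6% alone, and BD WTA myeloid-like cells 4.24% and 2.54% at resolution 0.5. The cause was not tested. Clustered alone, BD WTA gave no marginal zone-like or follicular-like class and neither library a myeloid-like class, so those values could not be had. In Tnfrsf13c the TAS-Seq log2 ratio of B-like over T-like cells was 5.83, and 4.78 with doublet calls removed. In BD WTA that of Ly86 was 11.91 (2 T-like reads) and then 3.58. That of Cd180 in BD WTA was 10.60 with its T-like count of 0 set to 3 reads, and then 4.97. Removal of cells with reads of both B-cell and T-cell markers, and resolutions 0.5 and 2 for counts of the 9 genes, were chosen after seeing the data. Reads of Tlr9 were found in 20 and 7 B-like cells and reads of Tlr7 in 48 and 22, which limits what can be said of them.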
